A study of Arabidopsis lyrata with 12 samples.

Results

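Genes carrying trimethylated lysine 27 of histone H3 (H3K27me3) in young Arabidopsis lyrata leaves were ordered by how much of the mark lay on them, and each was set against the mRNA it gave. A gene was taken when 200 bp or more of it lay in H3K27me3 domains, which held for 4157 of 24268 listed genes (17.1%). Of these, 1976 also had at least 200 bp of H3K4me3 (trimethylated lysine 4) and 2181 did not. The plants were of accession MN47, grown in soil in 16 hours of light and 8 hours of dark at 22.5 °C, with no treatment or mutation named. H3K27me3 and H3K4me3 were precipitated in 2 libraries each, for which 1 domain list per mark was used, and mRNA was sequenced in 1 library. No error between replicates can therefore be given for any value. Genes without a listed mRNA value were not analysed, so every share and ratio below holds for listed genes only. The RefSeq annotation holds 34365 genes. No listed gene has a coverage below 1, and whether genes without detected mRNA were left out is not stated.

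H3K27me3 is placed by Polycomb repressive complex 2, whose catalytic subunits in the related Arabidopsis thaliana are CURLY LEAF, SWINGER and MEDEA. In plants it commonly lies over the body of single genes, many of them developmental regulators that are kept silent outside their own tissue. H3K4me3 is placed by Trithorax-type methyltransferases and usually marks the 5′ part of genes that are being transcribed.

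The dose of H3K27me3 was measured in several ways: the share of the span under domains, whether the ends or the middle were covered, the width of the widest domain touching the gene, and the domain score per base pair. The mRNA value is the deposited mean exon coverage of a gene, whose scale has no stated unit and whose lowest value is exactly 1. Whether exon bases without reads entered this mean is not stated. If they did not, the values of sparsely covered genes are too high, and exactly 1 does not measure how much of a gene was covered. A median is given with a 95% interval from its ranked values, and a share of genes with an exact (Clopper-Pearson) 95% interval. Both cover counting error over genes only and treat genes as independent, which neighbours under 1 domain are not. Because whole leaves were profiled, fewer cells with a transcript and less RNA per cell cannot be told apart, nor can both marks on 1 copy of a gene and the marks in different cells.

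H3K27me3 usually covered most of a gene. The median share of the span was 65.7% (quartiles 35.7 and 90.4%), and 595 genes (14.3%) were covered from end to end. A total of 5084 of the 19060 domains (26.7%) touched at least 1 of these genes, and 828 genes were touched by at least 2 domains. Sharing was rare: 117 domains touched more than 1 of the genes, at most 3, and 234 genes were involved. The measures were not independent of each other. Across the 1976 genes with H3K4me3, the share of the span had a Spearman correlation of 0.547 with domain width, 0.480 with score per bp and -0.547 with span length. The same 3 values across the 2181 genes without H3K4me3 were 0.572, 0.512 and -0.512.

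Genes with H3K27me3 gave less mRNA than genes free of it, both with and without H3K4me3. With H3K4me3, the median coverage was 3.85 (interval 3.51 to 4.24, quartiles 1.54 and 10.9) in the 1976 genes with H3K27me3, against 9.89 (interval 9.72 to 10.1) in 17056 genes with 0 bp of it, a ratio of 0.389 (range 0.348 to 0.437 from the 2 intervals). Without H3K4me3, the median was 1.29 (interval 1.25 to 1.34, quartiles 1.00 and 2.47) in the 2181 genes with H3K27me3, against 1.83 (interval 1.76 to 1.91) in 2991 genes with 0 bp of it, a ratio of 0.705 (range 0.654 to 0.763). H3K4me3 covered 30.4% of the span at the median in genes with both marks, against 35.8% in genes with H3K4me3 and 0 bp of H3K27me3. The part of that difference in the first ratio was not tested. Because no coverage is listed below 1, the second ratio could not go below 0.546, and the sizes of the 2 ratios cannot be compared. Genes listed at exactly 1 made up 8.23% of all listed genes. They made up 11.9% (interval 10.5 to 13.5%) of the genes with both marks and 38.1% (interval 36.1 to 40.2%) of those with H3K27me3 and no H3K4me3. A coverage of 10 or more was reached by 38.7% of all listed genes, by 26.7% of the genes with both marks and by 6.24% of those with H3K27me3 and no H3K4me3.

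At the edge of the rule the numbers were small. With H3K4me3, the 14 genes with 200 to 299 bp of H3K27me3 had a median of 5.67 and the 39 genes with 1 to 199 bp a median of 5.81. Without H3K4me3, the medians were 1.51 in 26 genes just inside the rule and 1.25 in 25 just outside. The rule also leaves out 7 listed genes that are shorter than 200 bp and lie wholly under H3K27me3.

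In genes that also had H3K4me3, coverage was lower the more of the gene H3K27me3 covered. The median was 5.31 (interval 4.74 to 6.12) in the 389 genes covered to under 25%, 4.29 at 25 to under 50%, 3.78 at 50 to under 75% and 3.04 at 75 to under 100%. It was 2.47 (interval 1.84 to 3.16) in the 190 genes covered from end to end. The ratio of the last median to the first was 0.465, and the 2 intervals did not meet. The distributions were broad and overlapped: the quartiles were 1.36 and 9.06 at 100%, and 2.21 and 11.8 under 25%. Even the lightly covered genes lay below those with 0 bp of H3K27me3, at 0.537 of their median. The lightly covered genes had less H3K4me3, 17.0% of the span at the median against 35.8%, and longer spans, 4219 against 2325 bp. Where H3K4me3 covered under 25% of the span, their median was 4.07 against 7.30. It was 8.60 (interval 6.58 to 12.6) against 9.89 at 25 to under 50%, and 12.2 (interval 4.82 to 31.2) against 15.6 at 50% or more. The rule of 200 bp or more keeps the shortest genes out of the band under 25%, and the part of span length was not tested. Genes at exactly 1 made up 17.8% (interval 14.5 to 21.5%) of the group at 75 to under 100%, against 6.68% (interval 4.41 to 9.64%) of the group under 25%.

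Without H3K4me3, coverage was low in every band of share. Over the same 5 bands the medians were 1.29, 1.27, 1.19, 1.24 and 1.51. The ratio of the 405 genes covered from end to end to the 279 covered to under 25% was 1.17, and their intervals, 1.35 to 1.66 and 1.19 to 1.45, overlapped. The interval of the wholly covered genes lay above that at 50 to under 75% (1.06 to 1.31) and just above that at 75 to under 100% (1.16 to 1.35). The lower quartile was 1.00 in each band, the lowest value the table holds, so lower amounts of mRNA cannot be told apart there. The upper end did differ. A coverage of 10 or more was found in 12.1% of the genes covered from end to end and in 2.87% of those covered to under 25%, while with H3K4me3 these shares were 23.2 and 29.3%. The wholly covered genes without H3K4me3 were short, with a median span of 1282 bp against 4216 bp. The rule sets part of this gap, since 200 bp of H3K27me3 make up at least 25% of the shortest genes. Within 4 bands of span length, from under 1000 bp to 3000 bp or more, a coverage of 10 or more was found in 14.4, 12.7, 7.02 and 6.45% of the wholly covered genes. In genes covered to under 50% it was found in 8.33, 6.30, 3.55 and 3.84%, below the wholly covered genes in all 4 bands. In the longest band the wholly covered share rested on 2 of 31 genes. In genes covered to at least 75% it was found in 13.8, 7.54, 6.13 and 2.63%, so at 3000 bp or more the order was reversed. The wholly covered genes numbered 160, 157, 57 and 31 and those covered to under 50% 24, 127, 141 and 391, and the differences were not tested. Genes with 0 bp of H3K27me3 and no H3K4me3 reached it in 10.9, 8.80, 6.92 and 7.65% of cases.

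**Figure D1:**
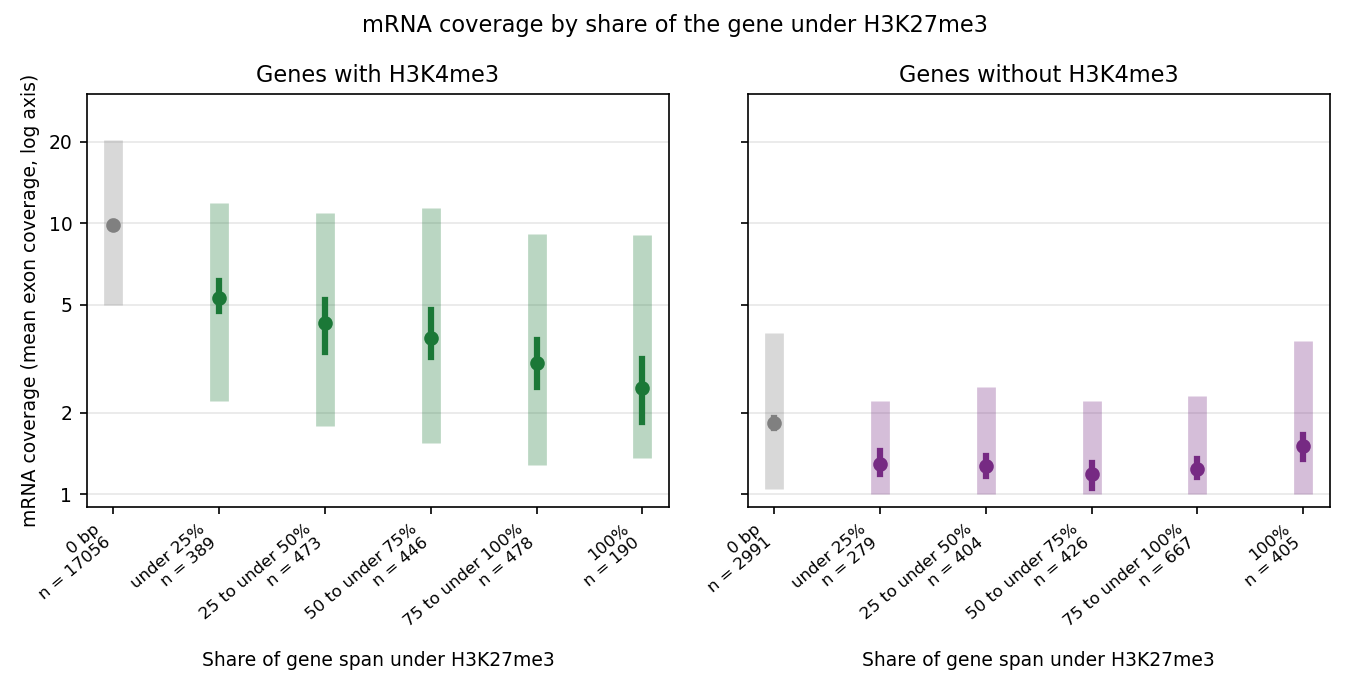
Median mRNA coverage (points, log axis) by share of the gene span under H3K27me3, for genes with H3K4me3 on the left and without it on the right. Thick lines are 95% intervals of the median, pale bars run between the quartiles, grey marks genes with 0 bp of H3K27me3, and n is the number of genes. With H3K4me3 the medians step down to 2.47 at 100%, and without it they stay between 1.19 and 1.51.

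The medians of the 2 classes lay closer together the more of the gene H3K27me3 covered. The lowest listed coverage bounds the class without H3K4me3 from below, so a like fall in both classes would also bring the medians closer. The sizes of these ratios therefore cannot show how far mRNA fell in each class. The median with H3K4me3 was 4.10 times that without it (range 3.27 to 5.14 from the 2 intervals) among genes covered to under 25%. In the next bands it was 3.37, 3.18 and 2.44 times, and among genes covered from end to end 1.63 times (range 1.11 to 2.33). Across single genes the relation was weak. The Spearman correlation of share with coverage was -0.135 over 1976 genes with H3K4me3 and 0.064 over 2181 without. All values share 1 mRNA library and 1 domain list. With H3K4me3 it was negative on each of the 8 main scaffolds (-0.264 to -0.044), and without H3K4me3 it was negative on 1 of them (-0.099 to 0.167).

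In genes with H3K4me3, well covered genes had the lower median in all but the shortest of 4 bands of span length, with separate intervals in 1 of them. The correlation of share with coverage was negative in each of 4 bands of span length, from -0.174 to -0.065. For spans of 1000 to under 2000 bp, the median was 2.78 (interval 2.02 to 3.33) in 322 genes covered to at least 75% and 5.27 (interval 3.68 to 6.71) in 148 covered to under 50%. Genes of that length with H3K4me3 and 0 bp of H3K27me3 had a median of 11.3. For spans of 2000 to under 3000 bp the 3 medians were 2.69, 5.16 and 9.65, and the first 2 had overlapping intervals (1.86 to 4.14 and 3.30 to 6.58). For spans of 3000 bp or more they were 2.87, 4.67 and 9.25, again with overlap (2.31 to 4.27 and 4.08 to 5.31). Under 1000 bp, the first 2 were 3.19 and 3.12, with overlapping intervals.

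Other marks differed with the share too. Among genes with H3K4me3, H3K27me1 (monomethylated lysine 27, known from heterochromatin) was found on 2.63% of those covered from end to end by H3K27me3 and on 24.9% of those covered to under 25%. Methylated DNA (5mC) was found on 8.42% of the genes covered from end to end and on 35.0% of those covered to under 25%. Over all listed genes the 2 marks were found on 7.97 and 11.0%. The wholly covered genes were also shorter, with a median span of 1302 bp against 4219 bp. The rule of 200 bp or more sets part of this gap. In genes with H3K4me3 and 0 bp of H3K27me3, H3K27me1 was found on 7.34% of spans of 3000 bp or more and on 1.31% of those under 1000 bp. Over the 1594 genes with both H3K4me3 and H3K27me3 and neither of these marks, the correlation of share with coverage was -0.163.

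By Spearman correlation, the order was clearest where H3K4me3 covered 25 to under 50% of the span and weakest where it covered 50% or more. A larger share of H3K4me3 went with more mRNA (Spearman 0.221 over 1976 genes), and it also went with a larger share of H3K27me3 (0.386). Where H3K4me3 covered 25 to under 50% of the span, the medians over the 5 bands of H3K27me3 were 8.60, 6.04, 3.78, 2.15 and 2.22. The intervals of the first (6.58 to 12.6) and the last (1.67 to 3.33) lay far apart, and the correlation of H3K27me3 share with coverage was -0.339 over 569 genes. Span length moved with the share there: its median was 3076 bp in the first band and 1437 bp in the last, and its own correlation with coverage was 0.284. Its part in the relation was not tested. Where H3K4me3 covered under 25%, the medians were 4.07, 3.38, 2.48, 2.29 and 1.53, the last in 32 genes, and the correlation was -0.208 over 819 genes. Where it covered 50% or more, coverage stayed higher throughout. The medians were 12.2 in 25 genes (interval 4.82 to 31.2), then 6.46, 6.31, 5.49 and 5.58. The correlation was -0.072 over 588 genes. In these 3 classes of H3K4me3 share, genes with 0 bp of H3K27me3 had medians of 9.89, 7.30 and 15.6.

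**Figure D2:**
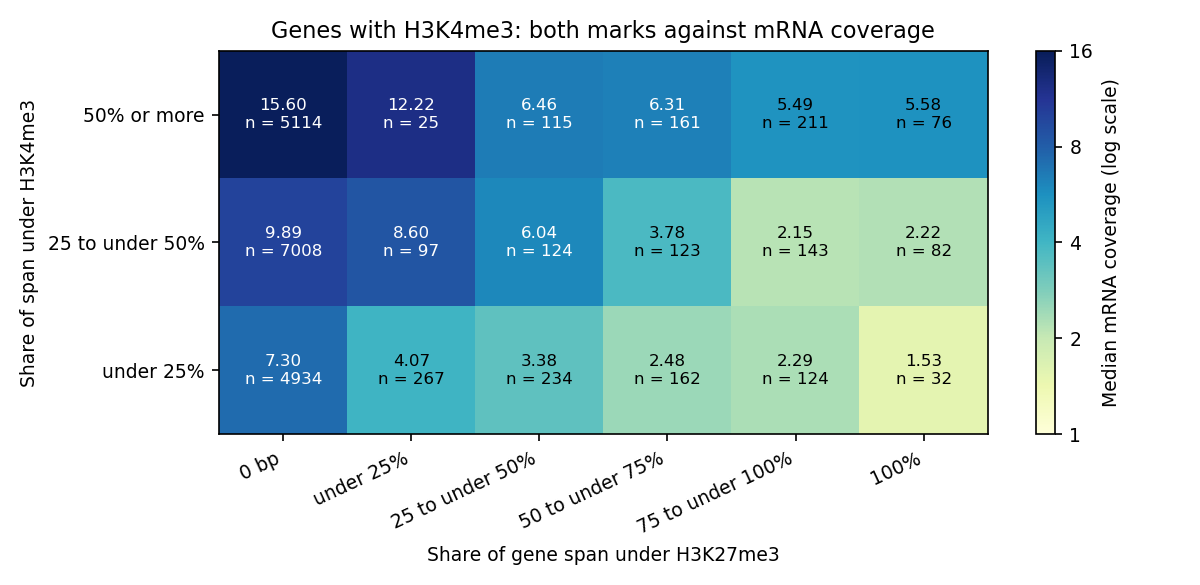
Median mRNA coverage (colour on a log scale, and printed) of genes with H3K4me3, by the share of the span under H3K27me3 (columns, left to right from 0 bp to 100%) and under H3K4me3 (rows); n is the number of genes in a cell. Medians run from 15.6 at the upper left to 1.53 at the lower right, and in the top row they stay between 5.49 and 6.46 from a share of 25% upwards.

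How much of the H3K4me3 itself lay under H3K27me3 went with coverage too. In 963 genes the whole H3K4me3 length was under H3K27me3, and their median coverage was 2.53 (interval 2.27 to 2.92), with 18.5% at exactly 1. In 414 genes with 50 to under 100% of it covered the median was 4.87, and in 155 genes with less than 50% of it covered it was 8.81 (interval 6.91 to 12.1). The share of the span under H3K27me3 moved with this overlap, with medians of 82.4, 53.0 and 27.6% in the same order. Its part in the relation was not tested. The 444 genes in which the marks shared 0 bp had a median of 4.97, but H3K4me3 covered only 15.9% of their spans at the median, against 40.6% in the 155 genes.

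Position was read from genes of at least 2000 bp, where an end is the outer 500 bp and counts as covered with at least 200 bp of H3K27me3. The table gives no strand, so an end may be the 5′ or the 3′ one. With H3K4me3, the median coverage was 2.50 (interval 2.17 to 3.50) in 235 genes with H3K27me3 at both ends. It was 4.34 (interval 3.71 to 5.08) in 642 genes with 1 end covered and 5.19 (interval 4.09 to 6.36) in 211 genes with the middle alone covered. Genes with both ends covered were at 0.540 of the median of the rest. They were also covered over more of their length, 86.8% at the median, against 33.5 and 20.7%. Limited to genes covered over 25 to under 75% of the span, the medians were 2.10 (interval 1.51 to 2.95) in 65 genes, 3.98 (interval 3.20 to 4.83) in 383 and 5.38 (interval 2.53 to 7.38) in 85. The shares were still unequal there, with medians of 64.9, 45.0 and 35.3%. Without H3K4me3, the 3 positions gave 1.17 in 419 genes, 1.23 in 556 and 1.24 in 173, with overlapping intervals.

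H3K4me3 offers a landmark where strand is missing. In 690 genes of at least 2000 bp it lay at 1 end only. Coverage was lowest with H3K27me3 at both ends (median 2.82, 156 genes) and highest with H3K27me3 in the middle alone (6.82, interval 4.66 to 8.59, 123 genes). With H3K27me3 at the H3K4me3 end alone it was 3.50 (interval 2.59 to 4.80, 229 genes), and at the opposite end alone 4.07 (interval 3.35 to 5.21, 182 genes). The intervals of these last 2 groups overlapped, and the difference between the ends was not tested. Genes at exactly 1 made up 12.7% (interval 8.65 to 17.7%) with the H3K4me3 end covered. With the opposite end covered they made up 7.14% (interval 3.86 to 11.9%). Genes with the middle alone covered had the smaller share, 20.7% against 34.5 and 32.5%. At a share of 25 to under 50%, the median was 5.89 (interval 3.57 to 10.6) in 45 genes with the middle covered, 3.14 in 82 with the H3K4me3 end covered and 3.20 in 74 with the other end covered. The interval of the first overlapped those of the others, 2.30 to 4.92 and 2.23 to 5.54.

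**Figure D3:**
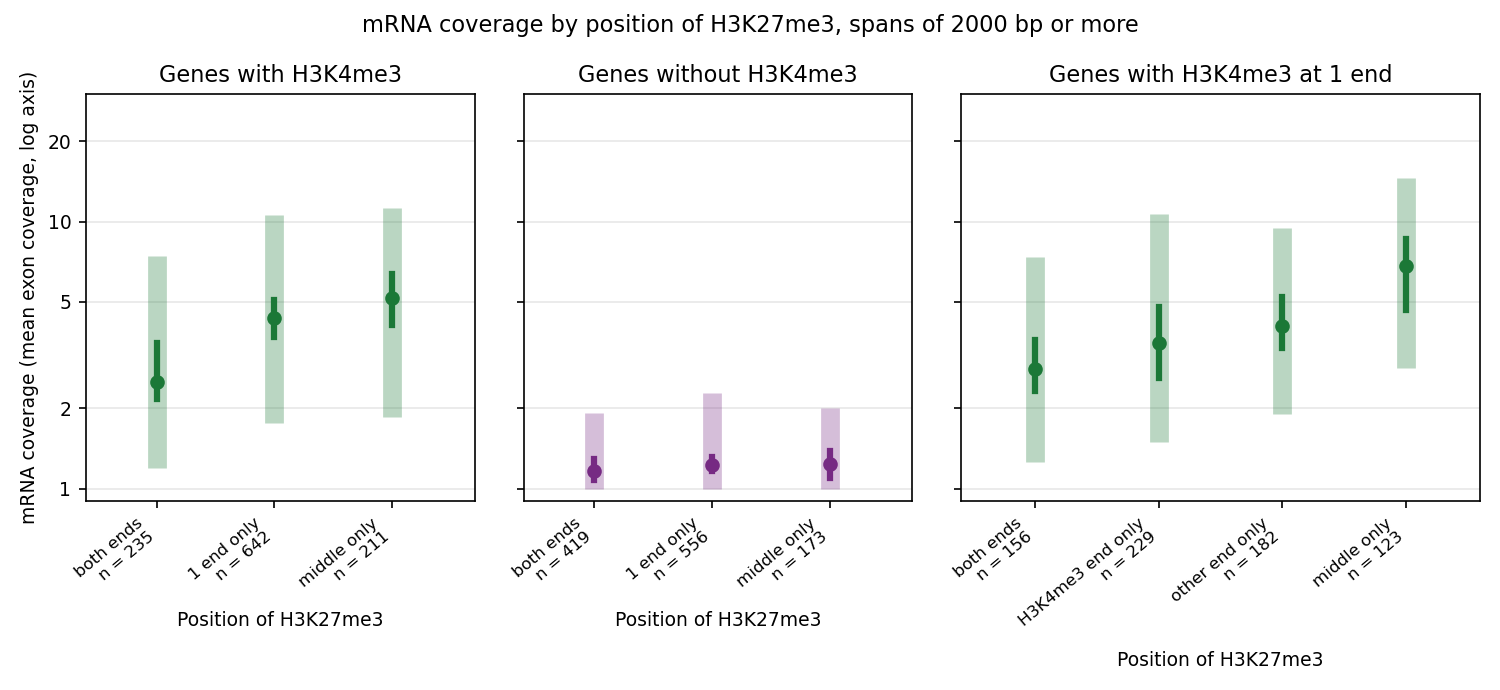
Median mRNA coverage (points, log axis) by the position of H3K27me3 in genes of at least 2000 bp, for genes with H3K4me3, genes without it, and genes with H3K4me3 at 1 end only. Thick lines are 95% intervals of the median, pale bars run between the quartiles, and n is the number of genes. Medians with H3K4me3 run from 2.50 with both ends covered to 5.19 with the middle covered, and those without H3K4me3 lie between 1.17 and 1.24.

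Laid out from the H3K4me3 end, the 690 genes were split by coverage into 3 groups of 230. The group with the least mRNA (coverage 1.00 to 2.24) had more H3K27me3 than the group with the most (7.14 to 1146) in each of 10 bins along the span. The gap was widest in the second bin from the H3K4me3 end, where 61.1% of bases were covered in the lowest group and 46.7% in the highest. In the last bin 41.6% were covered in the lowest group and 33.1% in the highest. The middle group was close to the highest in the second bin, at 45.0%, and to the lowest in the last, at 42.8%. The profile had a peak towards each end in all 3 groups and was lower between them.

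**Figure D4:**
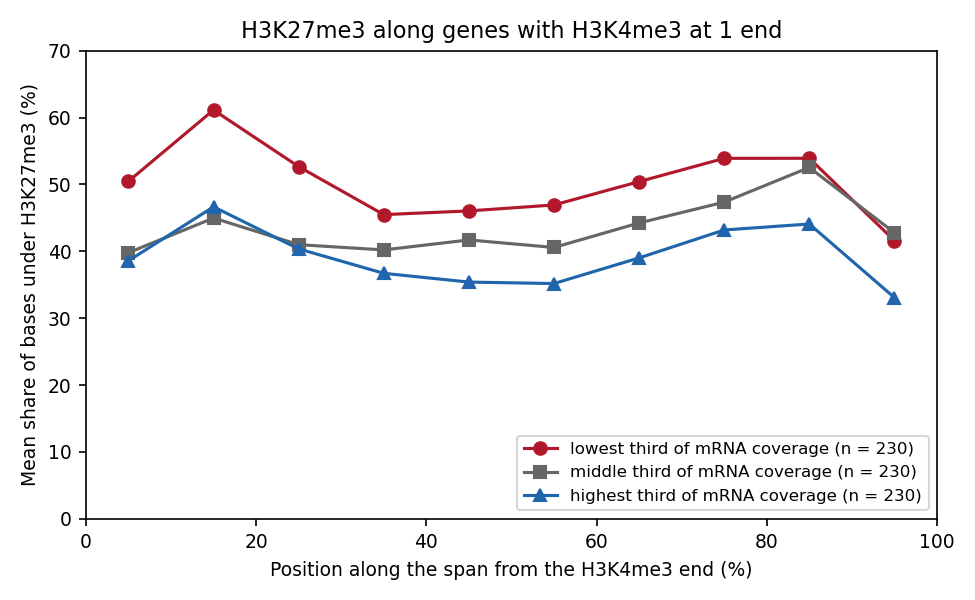
Mean share of bases under H3K27me3 (vertical axis, %) in 10 bins of the span, counted from the end that carries H3K4me3 (horizontal axis, %), in 690 genes of at least 2000 bp. Each line is a group of 230 genes by mRNA coverage. The group with the lowest coverage lies above that with the highest in all 10 bins and reaches 61.1% in the second.

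Where H3K4me3 was present, genes whose domains ran past both edges had the lowest coverage. With H3K4me3, 248 genes had domains that ran past both edges, and their median coverage was 2.43 (interval 1.88 to 2.96). It was 3.86 in 792 genes with domains past 1 edge and 4.30 (interval 3.84 to 4.83) in 936 genes whose domains ended inside the gene. The median share of the span under H3K27me3 was 100, 64.3 and 41.0% in the same order. A single domain past both edges covers the gene from end to end by definition. The first group is therefore not independent of the wholly covered genes described above. Without H3K4me3 the medians of coverage were 1.39, 1.26 and 1.26. A coverage of 10 or more was found in 10.4% of these 517 genes with domains past both edges and in 2.89% of the 726 with domains inside. The median shares under H3K27me3 were 100 and 42.5% in these last groups, and the median spans 1531 and 2604 bp. The parts of share and span in these differences were not tested.

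Wider domains went with less mRNA in genes with H3K4me3, mainly between the narrowest band and the rest. The median was 4.94 (interval 4.30 to 5.42) in 866 genes whose widest domain was under 1000 bp and 3.16 (interval 2.76 to 3.76) in 617 genes at 1000 to under 2000 bp. It was 3.21 in 391 genes at 2000 to under 4000 bp and 2.51 (interval 2.02 to 4.74) in 102 genes at 4000 bp or more. The widest were at 0.508 of the narrowest, but the intervals of these 2 bands met. Without H3K4me3 the 4 medians were 1.36, 1.23, 1.35 and 1.16, with overlapping intervals for the widest and the narrowest. The Spearman correlation of width with coverage was -0.120 with H3K4me3 and -0.004 without. In the widest band without H3K4me3, 43.3% of 201 genes were at exactly 1, while 11.9% reached a coverage of 10 or more, the largest such share of the 4 bands.

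By score per bp, the genes with the densest H3K27me3 had the lowest coverage where H3K4me3 was present. The deposited score is the authors' own value for a domain and what it counts is not stated. It followed domain width closely (Spearman 0.944 over 19060 domains), and dividing it by width left a correlation of 0.447. Quartile groups were set over all 4157 genes, at 0.683, 0.898 and 1.21 score units per bp. With H3K4me3, the medians of coverage were 4.58 (interval 3.86 to 5.19), 4.01, 4.17 and 2.79 (interval 2.32 to 3.31), and the highest group was at 0.610 of the lowest. Genes at exactly 1 made up 17.3% (interval 14.1 to 21.0%) of the highest group and 7.34% (interval 5.27 to 9.90%) of the lowest. Without H3K4me3, the medians were 1.27, 1.25, 1.31 and 1.34, and the shares at exactly 1 were 39.8, 39.3, 37.3 and 36.4%.

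Within bands of share the score per bp went with coverage less evenly. In genes with H3K4me3, its correlation with coverage was between -0.166 and 0.011 in the 5 bands of share, and below -0.05 in the top 2 bands alone. The share in turn kept a negative correlation in each of the 4 score groups, from -0.161 to -0.031. Within the bands of share, domain width had correlations with coverage between -0.114 and 0.049.

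**Figure D5:**
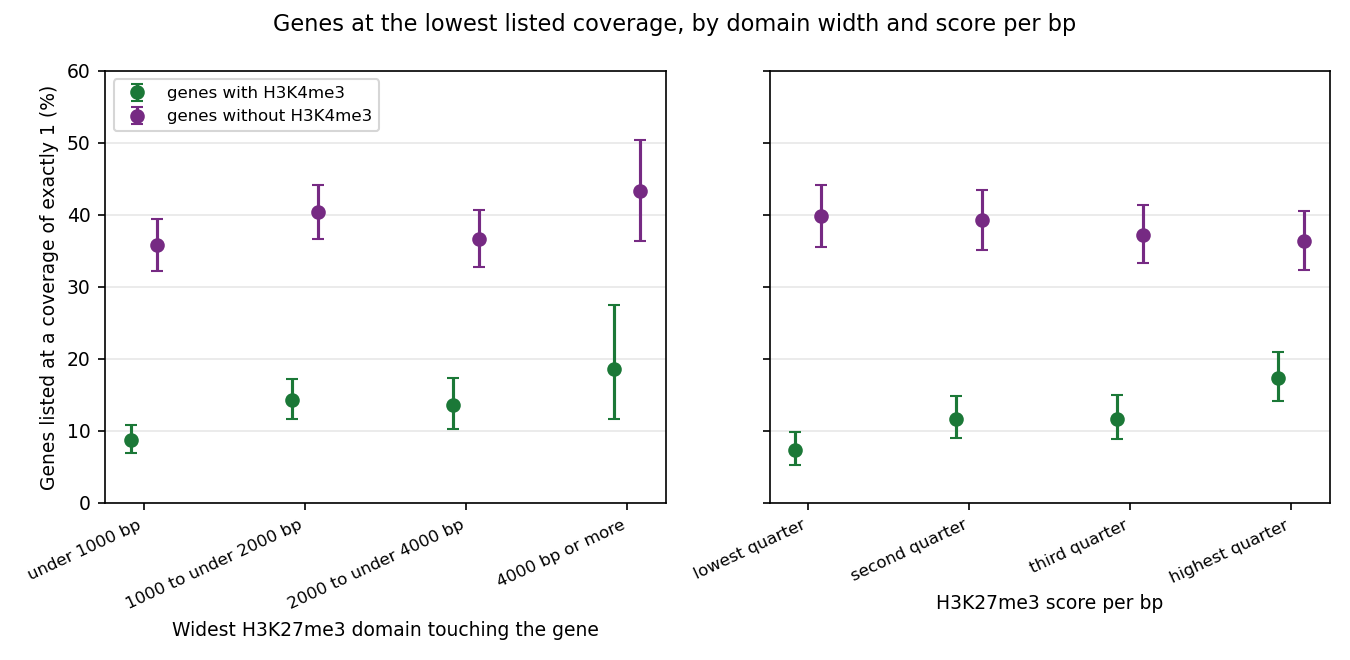
Share of genes listed at a coverage of exactly 1 (vertical axis, %) by the widest H3K27me3 domain touching the gene (left) and by quartile group of H3K27me3 score per bp (right). Points are shares and bars exact 95% intervals, in green for genes with H3K4me3 and in purple for genes without it. With H3K4me3 the share is 17.3% in the highest and 7.34% in the lowest score group, and without it all 8 values lie between 35.8 and 43.3%.

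Neighbouring genes under 1 domain gave a comparison at the same width and score of the main domain, which is the domain with the most overlap. The share of the span under H3K27me3, the span length and any other domains touching either gene were not matched. In 38 pairs of neighbours whose main domain was the same, 1 gene had H3K4me3 and the other did not. The gene with H3K4me3 had the higher coverage in 27 pairs (71.1%, interval 54.1 to 84.6%) and the lower in 11. The median coverage was 4.44 for the genes with H3K4me3 and 1.48 for their partners.

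Single genes could lie far from these medians. The files pair no identifier with a gene name, so only 4 are given, by their place on the scaffolds of the deposited files, whose build is not stated. Among genes with H3K4me3 and the whole span under H3K27me3, the highest coverage was 1600 in AL1G39200 (scaffold 1, 11660248 to 11660988) and 858 in AL7G10630 (scaffold 7, 220303 to 222188). Both exceeded the group median of 2.47 by far. All 450 bp of H3K4me3 in AL1G39200 and all 1650 bp in AL7G10630 lay under H3K27me3, in domains of 1200 and 4200 bp with 1.23 and 1.47 score units per bp. At the other end, AL3G50660 (scaffold 3, 23250117 to 23252819) and AL8G40050 (scaffold 8, 21310769 to 21312395) were listed at exactly 1, with no H3K4me3. They had the highest score per bp of such wholly covered genes, 2.53 and 2.25, in domains of 3000 and 2100 bp. None of the 4 carried H3K27me1 or 5mC or overlapped another listed gene.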

How the data were processed

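The submitters' processing notes name Bowtie and SICER without giving versions. The authors deposited for each mark 1 list of domains with a whole-number score, and for the mRNA library a coverage signal, the mean exon coverage per gene. The sources used here give no calling settings, genome build, annotation or normalization of the coverage, and do not say whether replicates were pooled. Depth is unknown, so no value was corrected for it. Domain starts count from 0 and ends are inclusive in the deposited lists, whose H3K27me3 edges fall on a grid of 300 bp; printed positions count from 1.

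Domains were laid on gene spans with Python 3.11.15, numpy 2.4.6, pandas 2.3.3 and scipy 1.17.1, and figures were drawn with matplotlib 3.10.9. A gene's score per bp is the mean of its domains' score divided by width, weighted by overlap. A ratio of 2 medians carries the range that the 2 median intervals allow, which is wider than a 95% interval. No test was run, since 1 mRNA library gives no replicates. The overlap counts were checked on simulated intervals, and the ratio for share on simulated coverage of the member genes. The ratios for position, width and score per bp were not checked in this way. The simulation gave both classes the same baseline, so it did not copy the low coverage of genes without H3K4me3. Groups were taken from sample titles. The members, classes and measures were chosen with earlier results of these data known. The classes of H3K4me3 share, the landmark end, the span bands and the coverage of 10 were chosen after values were seen. Alternatives changed the minimum lengths, the domains, the other marks, overlapping genes, genes at exactly 1, span lengths, end lengths and the domain that gives width or score. The gene identifiers matched 0 of 34365 RefSeq genes (assembly v.1.0), so lists of Polycomb targets and leaf marker genes could not be looked up, and the leaf label was not checked against markers. The 4 genes in the text were named by a rule: the 2 of highest coverage with both marks and a fully covered span, and the 2 of highest score per bp at exactly 1 without H3K4me3. Input libraries were not used here.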

Additional observations from a re-analysis of the deposited data

How the results depend on the processing

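No paired analysis was possible because each mark has 1 domain list with no replicate values and the mRNA has 1 library. Each ratio of medians was recomputed under 8 to 10 alternatives, 72 values in all, and each stayed within the range of its main value. With H3K4me3, all ratios stayed below 1: 0.344 to 0.570 for the share of the span, 0.540 to 0.695 for position, 0.428 to 0.737 for width and 0.473 to 0.818 for score per bp. Without H3K4me3 they were 1.07 to 1.25, 0.914 to 1.06, 0.791 to 1.04 and 0.973 to 1.09. There the range that the 2 median intervals allow included 1 under every alternative, although all ratios for share were above 1. With H3K4me3, the range came to include 1 under 1 of 8 alternatives for share (spans over 3 kb, 7 wholly covered genes) and under 3 of 10 for position (upper 50% of domains by score per bp, spans of 1 to 3 kb, ends of 250 bp). It did so under 2 of 9 for score per bp (without genes at exactly 1, ratio 0.818; spans over 3 kb, 0.808). For width the main range already included 1. Unknown depth limits all low values, and 38.1% of the genes with H3K27me3 and no H3K4me3 sat at the lowest listed coverage.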
